A study of Mus musculus with 2 samples.

Results

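The genes described here are those of the mouse proteasome and its dedicated helpers, and Psmc3ip, which shares only the form of the symbol. They are every entry of the deposited gene activity table whose symbol begins with Psm, one of the letters a to g, and a number. The rule found 51 of the 24165 entries and 49 of the 20128 symbols. Psma6 and Psme2 had 2 RefSeq entries each, and every other symbol had 1. The measurement was global run-on sequencing (GRO-seq), which labels and sequences RNA from engaged RNA polymerase, so it reads ongoing transcription and not mRNA or protein. The cells were C2C12 myoblasts, an established mouse muscle precursor line, untreated and collected when they covered 80% of the plate. Each preparation of nuclei took 4 plates. There was 1 condition, and its 2 libraries were pooled by the authors into 1 value per entry, so no difference below has a replicate check and no test was made.

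Gene activity was given as sense-strand reads per kilobase of mappable gene body and 1000000 reads (RPKmM), counted from 1 kb after the transcription start site (TSS) to the transcript end, or as the word Inactive where the density did not stand above that of gene deserts. RPKmM is a level per length, so genes can be set side by side. The depth of each library is not in the table, so the reads behind each value are given as a rate and not a count. Per 1000000 reads, the activity multiplied by the body length came to between 1.08 reads (Psmg3) and 653 reads (Psmd14) among the active genes if all of the body was mappable, so the short and weakly transcribed genes rest on far fewer reads. All 5 myoblast markers were active, from 2.39 RPKmM (Myod1) to 146.13 RPKmM (Vim). Their sum of 234 RPKmM was mostly Vim and Des (72.45 RPKmM). Of 6 immune cell markers 2 were called active, at 0.01 RPKmM (Cd3e) and 0.02 RPKmM (Cd74), and of 6 male germ cell markers 1 was, at 0.02 RPKmM (Sycp3). Of 4 differentiated muscle markers, all were active, from 0.2 RPKmM (Ckm) to 6.85 RPKmM (Acta1).

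The proteasome is the protease that degrades ubiquitin-tagged proteins. Its 20S core is a barrel of stacked rings: outer rings of alpha subunits, which gate the entry, and inner rings of beta subunits, of which beta 1 (Psmb6), beta 2 (Psmb7) and beta 5 (Psmb5) cut the substrate. The 19S cap holds a ring of ATPases (Psmc genes), which unfold substrates, and non-ATPase subunits (Psmd genes), which receive and remove the ubiquitin chain. Interferon gamma brings in the immunoproteasome subunits Psmb9, Psmb10 and Psmb8 in place of beta 1, beta 2 and beta 5, and the activator PA28 (Psme1 and Psme2). Psmb11 is the beta 5 form of the thymic cortex and Psma8 the alpha 4 form of the testis.

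Of the 51 entries, 47 (92.2%) were active, against 70.2% of all entries. The 4 Inactive entries were Psmb8, Psmb9, Psmb11 and Psma8, that is 2 of the 3 immunoproteasome beta subunits and both tissue-restricted core subunits. The active entries had a median of 2.22 RPKmM (quartiles 1.2 and 3.72), 2.55 times the median of all active entries in the table, 0.87 RPKmM (quartiles 0.22 and 1.99). At or above that 0.87 RPKmM stood 44 of the 47 (93.6%), against 50.2% of all active entries. The 3 below it, Psmd10, Psmg2 and Psmg3, are assembly factors that are not part of the finished particle. At 5 RPKmM or more stood 8 of the 47 (17%), against 7.71% of all active entries. The entries stood above the whole table on each of these shares, and the highest, Psmd4 at 12.29 RPKmM, was above 97.8% of all active entries.

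**Figure D1:**
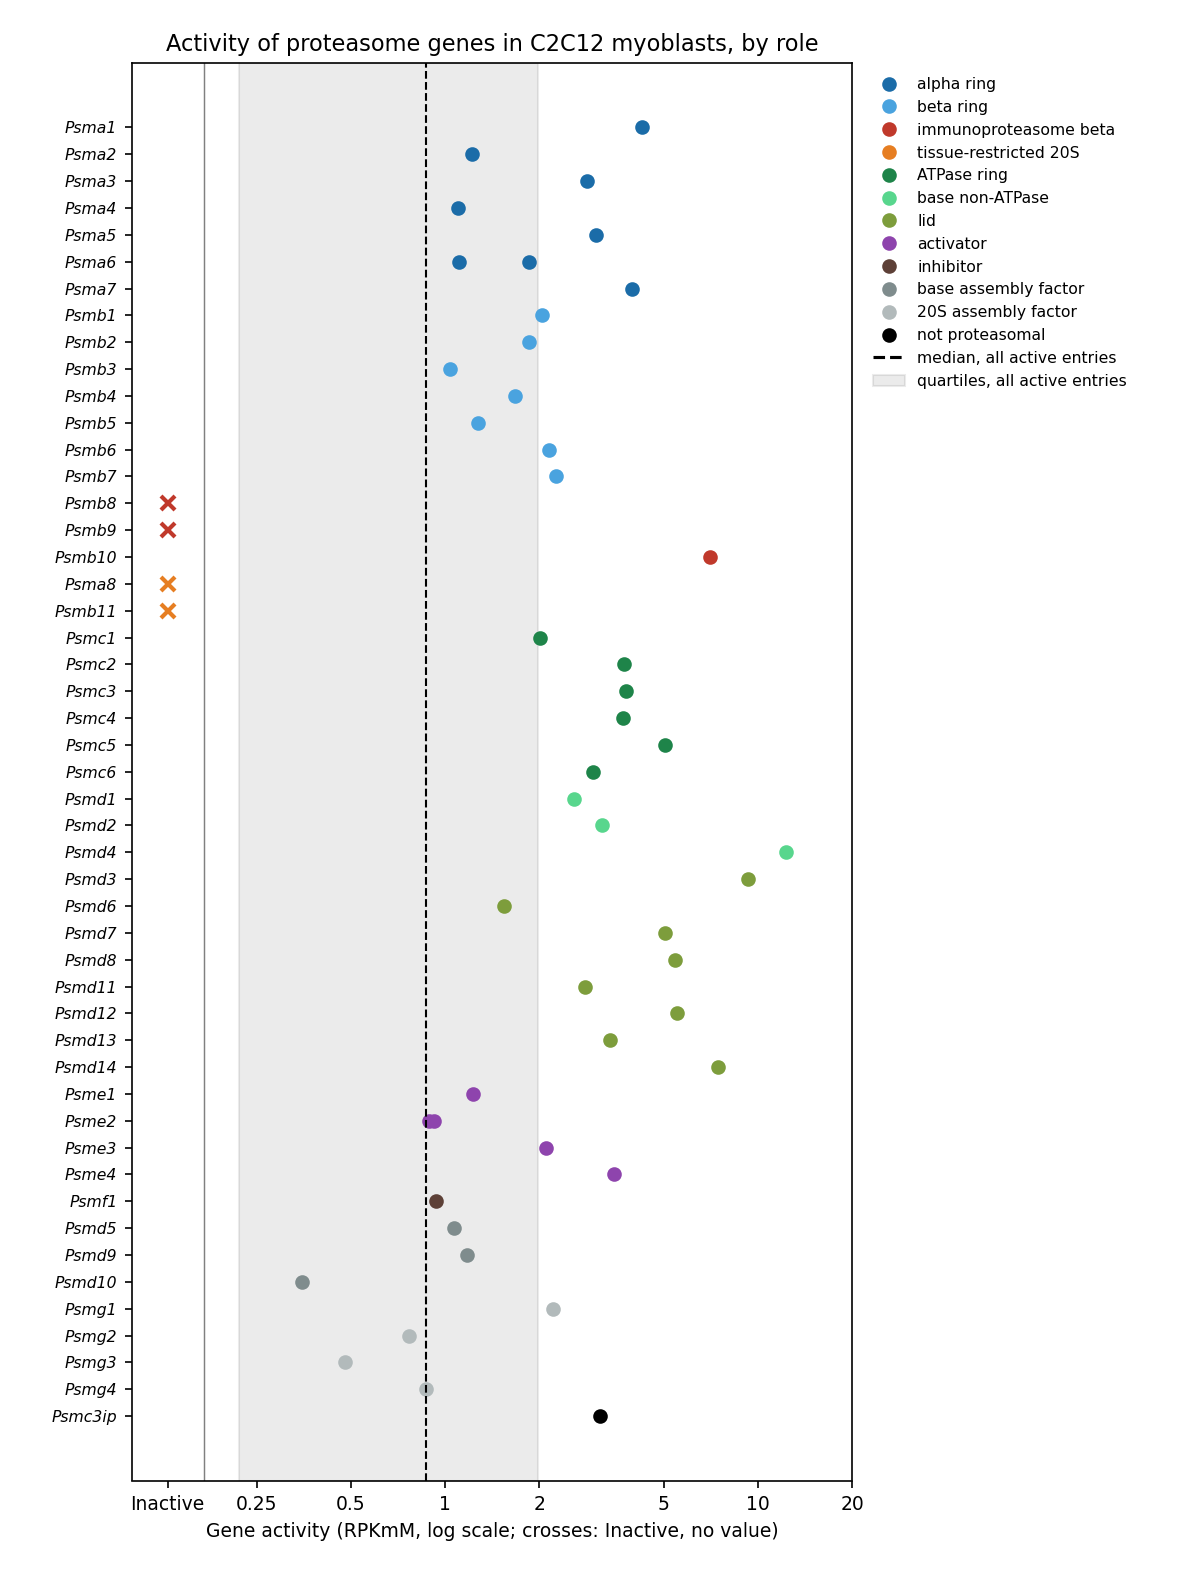
Activity of every entry with a matching symbol (RPKmM, log axis), 1 row per gene, coloured by role, with crosses for Inactive entries. The dashed line is the median of all active entries (0.87 RPKmM) and the grey band their quartiles (0.22 to 1.99 RPKmM). All points of the alpha, beta, ATPase, base and lid genes lie to the right of the line, and the 4 crosses are Psmb8, Psmb9, Psma8 and Psmb11.

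The upstream sequences of 7 genes show what these levels sit beside: the catalytic subunits Psmb5 and Psmb6, the immunoproteasome subunit Psmb10, the standard subunits with the lowest and the highest activity (Psmb3 and Psmd4), and Psmd14 and Psmc5, which carry a motif described below. The sequences are RefSeq promoters of GRCm38.p6, cut to the longest stretch of the 250 bases before the RefSeq start that overlaps no annotated exon, and each was found once in mm9, where the given positions apply. Capitals mark matches on either strand to the 5 motifs searched.
Psmb5 (chr14:55236852-55237082, minus strand): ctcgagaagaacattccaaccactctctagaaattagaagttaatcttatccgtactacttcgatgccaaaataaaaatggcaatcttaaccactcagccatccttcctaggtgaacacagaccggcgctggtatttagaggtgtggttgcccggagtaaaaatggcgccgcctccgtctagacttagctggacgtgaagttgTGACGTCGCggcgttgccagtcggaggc
Psmb6 (chr11:70338609-70338858, plus strand): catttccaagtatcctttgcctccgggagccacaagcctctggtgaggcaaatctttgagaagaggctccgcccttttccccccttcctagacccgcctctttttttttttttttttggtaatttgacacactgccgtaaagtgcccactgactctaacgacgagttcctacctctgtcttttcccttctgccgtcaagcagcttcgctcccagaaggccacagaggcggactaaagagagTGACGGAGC
Psmb10 (chr8:108462293-108462542, minus strand): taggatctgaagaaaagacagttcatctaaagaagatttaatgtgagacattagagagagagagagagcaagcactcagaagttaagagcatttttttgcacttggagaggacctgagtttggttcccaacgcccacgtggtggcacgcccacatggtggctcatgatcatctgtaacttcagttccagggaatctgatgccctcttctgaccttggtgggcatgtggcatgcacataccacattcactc
Psmb3 (chr11:97564498-97564712, plus strand): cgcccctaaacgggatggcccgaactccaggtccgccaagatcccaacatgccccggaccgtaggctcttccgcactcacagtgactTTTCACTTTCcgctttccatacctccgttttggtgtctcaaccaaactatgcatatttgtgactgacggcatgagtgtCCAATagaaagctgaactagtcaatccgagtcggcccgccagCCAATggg
Psmd4 (chr3:94846537-94846786, minus strand): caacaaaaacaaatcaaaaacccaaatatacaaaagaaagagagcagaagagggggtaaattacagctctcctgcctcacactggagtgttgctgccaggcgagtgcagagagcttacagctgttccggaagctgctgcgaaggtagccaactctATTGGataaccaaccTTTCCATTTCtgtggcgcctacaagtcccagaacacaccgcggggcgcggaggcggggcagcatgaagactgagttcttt
Psmd14 (chr2:61549501-61549750, plus strand): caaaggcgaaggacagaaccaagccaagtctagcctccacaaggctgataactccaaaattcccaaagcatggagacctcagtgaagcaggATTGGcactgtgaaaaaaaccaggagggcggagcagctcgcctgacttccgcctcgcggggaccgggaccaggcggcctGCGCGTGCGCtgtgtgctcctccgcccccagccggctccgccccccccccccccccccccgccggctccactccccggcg
Psmc5 (chr11:106117394-106117467, plus strand): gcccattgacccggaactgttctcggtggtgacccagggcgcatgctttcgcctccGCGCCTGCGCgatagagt

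Psmb5 and Psmb6 each held TGANNNNGC, a loose form of the site of Nfe2l1, the factor that raises proteasome genes when the proteasome is inhibited, 47 and 9 bases before the start. The Psmb10 stretch held no match to any of the 5 motifs. Psmb3 and Psmd4, at opposite ends of the standard subunits by activity, both held CCAAT, the site of NF-Y, and GAAA repeated after a gap of 2 bases, the form of interferon response elements. Psmd14 and Psmc5 both held GCGCA and GCGC with 1 base between them, the form of the site of Nrf1, a factor of housekeeping promoters whose symbol is easily confused with an alias of Nfe2l1. A match is a string of letters and not a measured site.

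All 7 alpha ring genes were active, between 1.1 and 4.27 RPKmM with a median of 2.85 RPKmM. Psma1 was highest (4.27 RPKmM), followed by Psma7 (3.95 RPKmM), Psma5 (3.04 RPKmM) and Psma3 (2.85 RPKmM). Psma2 (1.22 RPKmM) and Psma4 (1.1 RPKmM) were lowest, so the ring spanned 3.88 times although its subunits enter the particle in equal numbers. The 2 entries of Psma6 read 1.85 RPKmM (NM_011968) and 1.11 RPKmM (NM_001310583), a ratio of 1.67, and their median of 1.48 RPKmM stands for the gene. Entries of 1 gene share reads and are not separate measurements.

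The 7 beta ring genes were lower and closer together, between 1.04 and 2.26 RPKmM (2.17 times) with a median of 1.86 RPKmM. The catalytic genes fell on both sides of that median: Psmb7, with trypsin-like activity, was the highest of the ring at 2.26 RPKmM, Psmb6, with caspase-like activity, read 2.15 RPKmM, and Psmb5, with chymotrypsin-like activity, read 1.28 RPKmM. The non-catalytic Psmb1 (2.05 RPKmM), Psmb2 (1.86 RPKmM) and Psmb4 (1.68 RPKmM) lay between them. Psmb3, at 1.04 RPKmM, was the lowest of all 31 standard subunit genes and was still above 55.1% of all active entries. An alpha gene was higher than a beta gene in 32 of 49 gene pairs (65.3%), with a ratio of medians of 1.53.

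The 6 ATPase genes lay between 2.02 and 5.04 RPKmM (2.5 times), with a median of 3.72 RPKmM. Psmc2 (3.73 RPKmM), Psmc3 (3.78 RPKmM) and Psmc4 (3.71 RPKmM) were nearly level. Psmc5 (5.04 RPKmM) was the highest, Psmc6 read 2.98 RPKmM, and Psmc1 (2.02 RPKmM) was the lowest. The ATPases form 1 ring with 1 copy of each, and an ATPase gene was higher than a beta ring gene in 39 of 42 pairs (92.9%).

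The highest single levels were those of non-ATPase genes of the cap. Shfm1, of the lid, and Adrm1, a ubiquitin receptor of the base, are cap subunits too; their symbols fall outside the rule, and at 1.41 and 1.45 RPKmM they were lower than every cap gene named Psm. In the base, the scaffold genes Psmd1 and Psmd2 read 2.59 and 3.17 RPKmM, and Psmd4, which encodes the ubiquitin receptor Rpn10, read 12.29 RPKmM, the highest of the 49 genes. Of the 8 lid genes named Psmd, 5 stood at 5 RPKmM or more: Psmd3 (9.28 RPKmM), Psmd14 (7.45 RPKmM), Psmd12 (5.52 RPKmM), Psmd8 (5.44 RPKmM) and Psmd7 (5.05 RPKmM). Psmd14 encodes the deubiquitinase that cuts the ubiquitin chain from the substrate, and Psmd7 its inactive partner. The other 3 lid genes were Psmd13 (3.38 RPKmM), Psmd11 (2.81 RPKmM) and Psmd6 (1.54 RPKmM), and the 8 spanned 6.03 times around a median of 5.25 RPKmM. With Shfm1 the lid spanned 6.58 times around a median of 5.05 RPKmM over 9 genes.

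Set against the core, the cap was higher. The 17 cap genes named Psm had a median of 3.73 RPKmM and the 14 core ring genes 1.96 RPKmM, a ratio of 1.91, and a cap gene was higher than a core gene in 201 of 238 pairs (84.5%). With Adrm1 and Shfm1 the cap median was 3.71 RPKmM over 19 genes and the count 209 of 266 pairs (78.6%). The 11 non-ATPase genes named Psmd (median 5.05 RPKmM) were higher than the beta ring genes in 72 of 77 pairs (93.5%), with a ratio of medians of 2.72. With the other two the median fell to 3.38 RPKmM over 13 genes, below the 3.72 RPKmM of the ATPases, and the count was 76 of 91 pairs (83.5%), so an order between non-ATPase and ATPase genes depends on which subunits are counted. Of the 7 standard subunit genes at 5 RPKmM or more, all were cap genes. These are descriptions of 1 pooled value per gene.

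Across the 31 standard subunits named Psm the median was 2.98 RPKmM (quartiles 1.94 and 4.11), and each of the 31 was at or above 0.87 RPKmM. The upper quartile was 2.12 times the lower, and the highest gene 11.8 times the lowest; with Adrm1 and Shfm1 the median was 2.85 RPKmM over 33 genes and the quartile ratio 2.35. Of other complexes of fixed composition, the COP9 signalosome, a relative of the lid, had a median of 2.19 RPKmM over 9 genes, from Gps1 at 0.535 RPKmM to Cops6 at 6.55 RPKmM, with 7 of 9 at or above 0.87 RPKmM. The translation factor eIF3, also a relative of the lid, had a median of 3.52 RPKmM over 12 genes but ran from Eif3k at 0.575 to Eif3a at 92.4 RPKmM, 161 times. The CCT chaperonin stood higher (median 14.6 RPKmM over 8 genes, Cct7 3.16 to Tcp1 58 RPKmM). Of 70 symbols of ribosomal protein type, 68 were active, with a median of 6.12 RPKmM and quartiles of 2.63 and 13.5 RPKmM. They include 6 symbols of a pseudogene, a retrocopy or a paralogue (Rpl34-ps1, Rpl37rt, Rpl39l, Rpl3l, Rpl7l1 and Rps27l), without which the median of 64 genes was 6.42 RPKmM and the quartile ratio 5.28. Over symbols of that type of at least 10 kb the median was 10 RPKmM, against 2.92 RPKmM for the standard subunits of that length. The quartile ratio of the proteasome, 2.12, was above that of COP9 (1.73) and below those of CCT (3.42), eIF3 (4.99) and all 68 of ribosomal protein type (5.11).

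**Figure D2:**
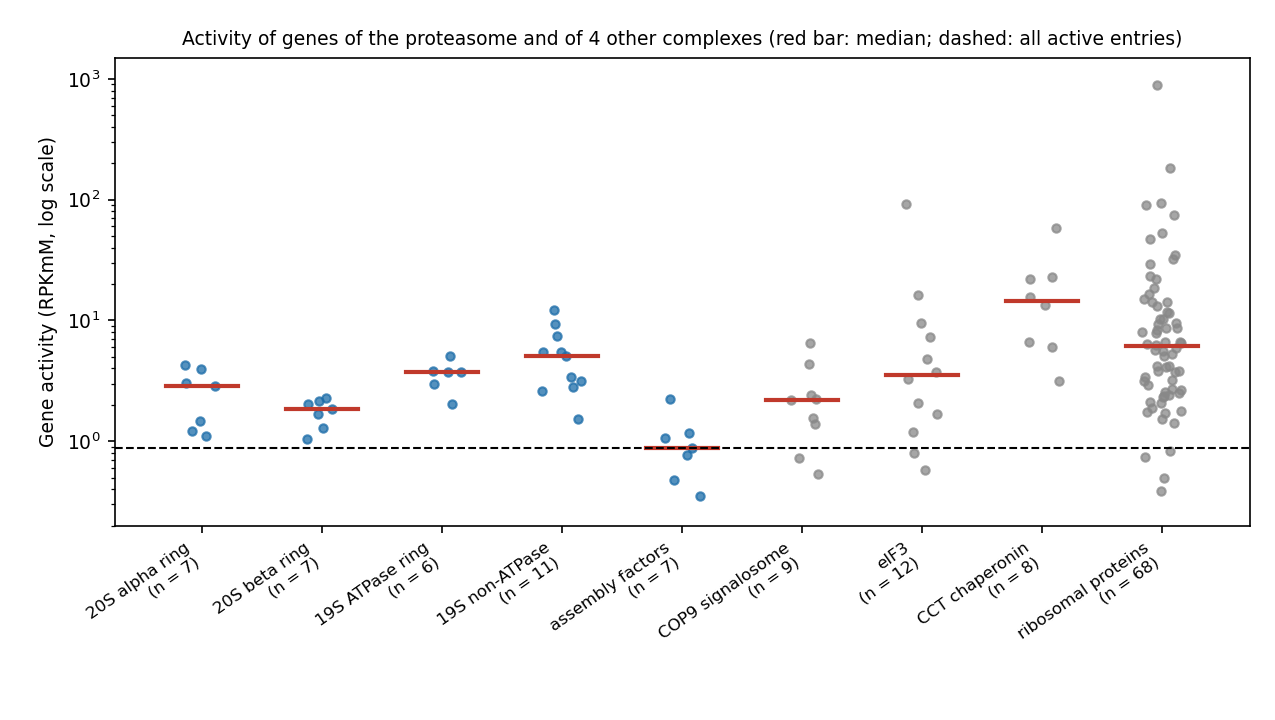
Activity of each active gene (RPKmM, log axis) of the proteasome subcomplexes and assembly factors (blue) and of 4 other complexes (grey), with a red bar at the median of each set and a dashed line at the median of all active entries (0.87 RPKmM). The medians run from 0.87 RPKmM for the assembly factors and 1.86 RPKmM for the beta ring to 5.05 RPKmM for the cap non-ATPase genes named Psmd, and the CCT genes lie higher still (14.6 RPKmM).

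The immunoproteasome genes were not alike. Psmb9 (beta 1i, NM_013585) and Psmb8 (beta 5i, NM_010724) were Inactive, while their standard partners Psmb6 and Psmb5 read 2.15 and 1.28 RPKmM. Psmb10 (beta 2i, NM_013640) read 7.05 RPKmM, above 95.3% of all active entries and 3.12 times its standard partner Psmb7 (2.26 RPKmM). It was the only 20S subunit gene of the table at 5 RPKmM or more. No ratio is given for the other pairs because Inactive is a call and not a value.

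The loci differ in their neighbours. Psmb9 (chr17:34318933-34324709, minus strand, mm9) and Psmb8 (chr17:34334666-34338399, plus strand) lie in the major histocompatibility complex on either side of Tap1, one chain of the transporter that carries peptides into the endoplasmic reticulum. Tap1 read 0.03 RPKmM, and its start overlaps that of Psmb9 by 211 bp, head to head. Psmb8 begins 495 bp after the end of Tap1, and Tap2, the other transporter gene, 2.07 kb further on, read 0.78 RPKmM. Along this stretch the genes up to Psmb8 were Inactive or barely above 0, and Tap2 was near the median of all active entries.

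Psmb10 lies apart from them, at chr8:108459628-108462292 on the minus strand. Its annotated extent is 2.67 kb, of which 1.67 kb lie beyond the first 1 kb. Lcat, on the same strand 1.16 kb before its start, read 0.21 RPKmM, and Slc12a4, next in line, read 3.35 RPKmM. An annotated noncoding RNA on the opposite strand, Gm16156, spans the whole gene and has no entry. Among 379 active genes of 2 to 3 kb (median 0.76 RPKmM), Psmb10 was above 88.4%, a lower rank than over all lengths, while the equally short Psmb6 was above 72.6% and Psmb4 above 66.8%. The part of the short body in the rank of Psmb10 was not tested.

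Psmb11 (NM_175204) was Inactive and its genomic neighbour Psmb5, 7.29 kb away on the other strand, read 1.28 RPKmM. Of the other 3 thymic epithelium markers, Epcam was Inactive, Foxn1 read 0.03 RPKmM, and Ccl25 had entries of 1.89 and 0.07 RPKmM. Psma8 (NM_001163609) was Inactive and its standard partner Psma7 read 3.95 RPKmM. The genes on either side of Psma8, Ss18 and Taf4b, were active at 0.98 and 0.22 RPKmM.

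**Figure D3:**
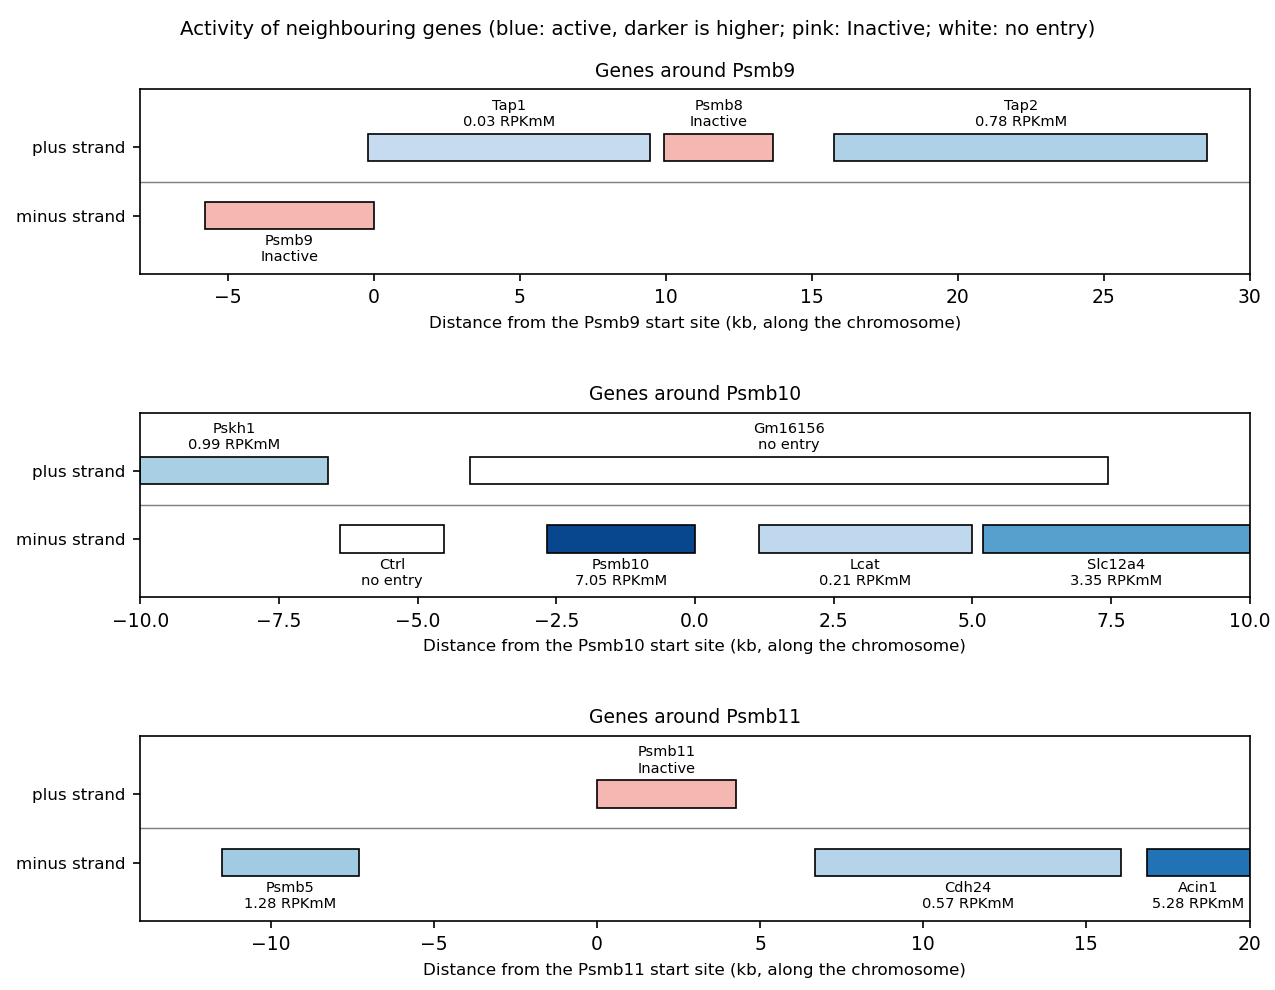
Genes around the start sites of Psmb9, Psmb10 and Psmb11 (distance along the chromosome in kb, strand on the vertical axis), to scale, with each gene's activity in RPKmM written beside it; predicted genes without an entry are left out except Gm16156. Psmb9, Psmb8 and Psmb11 are Inactive (pink), Tap1 reads 0.03 RPKmM, and Psmb10 (7.05 RPKmM) is the most active gene shown.

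The genes of interferon gamma signalling and class I antigen presentation give the setting of these calls. Of 14 genes, 13 were active, with a median of 1.11 RPKmM. The receptor chains Ifngr1 and Ifngr2 read 1.11 and 0.92 RPKmM and their kinases Jak1 and Jak2 3.46 and 1.28 RPKmM. Of the factors downstream, Irf1 had a median of 1.02 RPKmM over 3 entries, Nlrc5, which drives class I genes, read 0.15 RPKmM, and both entries of Irf8 were Inactive. The class I products themselves were higher, with B2m at 5.85, H2-D1 at 5.45 and H2-K1 at 5.01 RPKmM. The class I genes H2-D1 and H2-K1 are close copies; only uniquely aligned reads were counted, and whether reads of one were assigned to the other was not tested.

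The other inducible pair, the PA28 genes, was active. Psme1 read 1.23 RPKmM, and the 2 entries of Psme2 read 0.92 RPKmM (NM_011190) and 0.89 RPKmM (NM_001029855). They lie 5.91 kb apart and both were near the median of all active entries. Psme2 has a close copy, Psme2b-ps, which has no entry, and whether reads of one went to the other was not tested. The activators that are not part of the interferon response were higher: Psme3 (PA28 gamma, of the nucleus) read 2.11 RPKmM and Psme4 (PA200) read 3.47 RPKmM. Psmf1, the inhibitor PI31, read 0.94 RPKmM.

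The assembly factors had the lowest median of the groups with active genes. Their 7 genes had a median of 0.87 RPKmM, the same as all active entries of the table. The chaperones of the core were Psmg1 at 2.22, Psmg4 at 0.87, Psmg2 at 0.77 and Psmg3 at 0.48 RPKmM, and those of the base were Psmd9 at 1.18, Psmd5 at 1.07 and Psmd10 at 0.35 RPKmM. Psmg1 and Psmg2 act as a pair, as do Psmg3 and Psmg4, and in each pair the first and the second did not read alike: Psmg1 was above Psmg2 and Psmg4 above Psmg3. A cap subunit gene named Psm was higher than an assembly factor gene in 117 of 119 pairs (98.3%), and a core ring gene in 86 of 98 (87.8%). Psmc3ip carries a proteasome-like symbol but encodes a partner of meiotic recombinases; it read 3.12 RPKmM.

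Partners of the proteasome that carry other names were all active where they had an entry, 10 of 11, with a median of 2.25 RPKmM, close to that of the entries named Psm. The deubiquitinase Usp14 was highest (7.44 RPKmM), and its counterpart Uchl5 read 2.46 RPKmM. Akirin2, which carries proteasomes into the nucleus, read 4.78 RPKmM, and AI314180, the symbol in this table of the scaffold Ecm29, read 3.45 RPKmM. The ubiquitin receptor Adrm1 read 1.45 RPKmM against 12.29 RPKmM for Psmd4. The core maturation factor Pomp read 2.03 RPKmM and Shfm1, the smallest lid subunit, was lowest of the list at 1.41 RPKmM.

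Of the genes known to control proteasome genes, Nfe2l1 was far the highest. Its 4 entries read 20.89, 20.56, 13.4 and 13.34 RPKmM, with a median of 17 RPKmM, above 98.6% of all active entries. Ddi2, the protease that cuts Nfe2l1 into its active form, read 2.64 RPKmM, and Ngly1, which removes its sugars, 0.65 RPKmM. Its relatives differed, with Nfe2l2 at 5.45 and 2.49 RPKmM and Nfe2l3 Inactive. The subunits of NF-Y were level with each other (Nfya 2.02, Nfyb 1.98 and Nfyc 1.99 RPKmM), and Nrf1 ran from 1.43 to 2.02 RPKmM over its 4 entries. In all, 11 of 12 genes with an entry were active.

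Upstream of the proteasome, all 9 genes listed for ubiquitin and its shuttles were active (median 3.22 RPKmM). The polyubiquitin gene Ubb (10.83 RPKmM) stood above the ubiquitin fusion gene Rps27a (1.88 RPKmM). Among shuttles, which bring tagged proteins to Psmd4 and its neighbours, Rad23b read 6.11, Ubqln1 4.46 and Ubqln4 1.54 RPKmM. The unfoldase Vcp read 3.22 RPKmM.

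**Figure D4:**
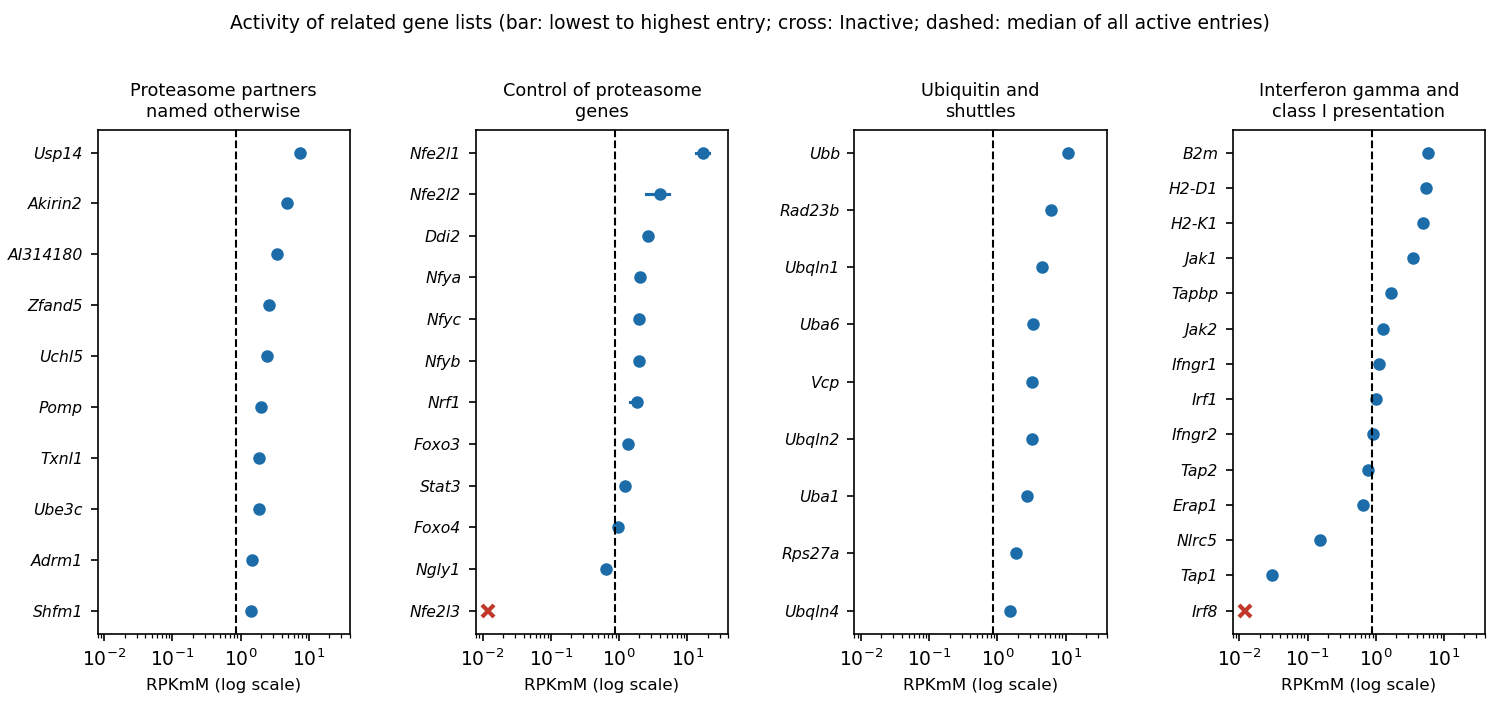
Activity (RPKmM, log axis) of genes in 4 related lists, sorted within each list, with a bar from the lowest to the highest entry where a gene has several, a cross for Inactive genes and a dashed line at the median of all active entries (0.87 RPKmM). All partner and ubiquitin genes lie to the right of the line, Nfe2l1 stands at 17 RPKmM, and the presentation list runs from Irf8 (Inactive) and Tap1 (0.03 RPKmM) to B2m (5.85 RPKmM).

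Gene length did not order the levels. The lengths ran from 2.49 kb (Psmb6) to 109 kb (Psme4), and the rank correlation of activity with length was 0.0644 over 45 active genes, 0.0145 over the 31 standard subunits and −0.0342 over 12499 active genes of the table. The points are genes of 1 pooled measurement. The 7 genes named Psm of 30 kb or more had a median of 2.59 RPKmM, the 20 of 10 to 30 kb 2.54 RPKmM, the 10 of 5 to 10 kb 3.83 RPKmM, the 5 of 3 to 5 kb 1.23 RPKmM (1.07 RPKmM over 4 genes without Psmc3ip) and the 3 of 2 to 3 kb 2.15 RPKmM. All active genes of the same classes had medians of 0.9, 0.94, 0.8, 0.81 and 0.76 RPKmM, so the genes named Psm were higher in each class.

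**Figure D5:**
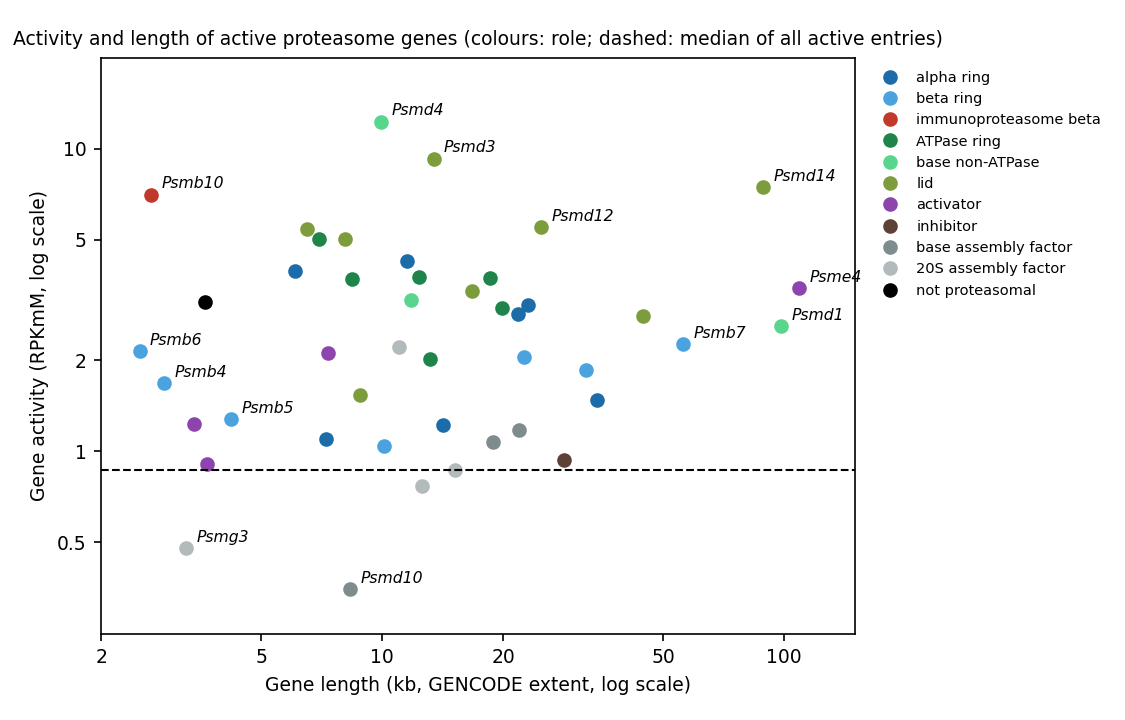
Activity (RPKmM, log axis) against gene length (kb, log axis) for the 45 active genes, coloured by role, with a dashed line at the median of all active entries (0.87 RPKmM). No clear slope is visible: Psmb10 (2.67 kb) and Psmd14 (88.7 kb) read 7.05 and 7.45 RPKmM.

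In the promoter sequences, 41 of the 49 genes matched a RefSeq entry, with 44 promoters running from 250 bases before to 50 after the start. Psma8, Psmb1, Psmb2, Psmb7, Psmc3, Psmd3, Psmd7 and Psmg2 had no entry. Each motif was searched on both strands and its share set beside that of all 32851 promoters of the same length. The Nrf1 form (GCGCA, any base, GCGC) was found in 7 member promoters (15.9%, against 4.6% of all), those of Psma2, Psma3, Psma4, Psmc4, Psmc5, Psmd14 and Psmg1. Of these, Psmd14 and Psmc5 are among the most active genes and Psma2 and Psma4 among the least active of the standard subunits. TGANNNNGC was found in 26 (59.1%, against 41.3%), and TGACTCAGC, 1 exact string of that form, in 0 (against 0.454%). The 0 holds for that string only and not for antioxidant response elements in general.

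CCAAT was found in 15 (34.1%, against 37.4%). The interferon response element form (GAAA, any 2 bases, GAAA) was found in 5 (11.4%, against 3.44%), those of Psmb3, Psmd4, Psmd9, Psme1 and Psmg4. In the shorter window from 150 bases before the start it was found in 3 (6.82%, against 2.06%). Member promoters had a median GC content of 57.6%, against 52.4% of all promoters. The part of base composition in the motif shares was not tested.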

How the data were processed

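GRO-seq libraries of C2C12 myoblasts were sequenced by the authors, called with CASAVA 1.8 and aligned to mm9 with Bowtie2, per the labels and the methods of the study. Uniquely aligned reads of both libraries were pooled. The deposited table holds RPKmM, a read density per mappable kilobase and 1000000 reads rounded to 2 decimals, for 16957 entries, and the word Inactive for 7208, where density failed a Poisson comparison with gene deserts. Of the active entries 154 are listed at 0.

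The members, roles and gene lists were chosen with earlier results of these data known. Every gene matching the rule was named, with the lists of partners, control, ubiquitin, presentation and markers, of which a few genes are not reported here. A gene with several entries was given the median of its active entries. Positions and lengths are GENCODE gene extents on mm9, in which all 49 symbols matched. Body lengths are these extents less the first 1 kb, and the RefSeq transcripts behind the deposited values may differ from them. Promoters were matched by symbol. The ribosomal pattern matched 81 symbols, of which 11 (S6 kinases and Rps19bp1) were left out after their names were seen. The search and summary code was tested on simulated data. Python 3.11.15, pandas 2.3.3, numpy 2.4.6, scipy 1.17.1 and matplotlib 3.10.9 were used.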

Additional observations from a re-analysis of the deposited data

How the results depend on the processing

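The alternatives were the most or least active entry of each symbol, entries of at least 0.01 RPKmM, genes of at least 10 kb, a geometric mean with 0.01 or 0.001 added, another measure of correlation, leaving out Psmc3ip, and a promoter window of 150 bases. Of the values recomputed, 63 differed from those reported by less than 1.5 times (the correlation by less than 0.1) and 2 by more. Some of the 63 could not differ, so their number is no measure of robustness. Psmb7, Psmb10 and the CCT genes have 1 entry each, and no active member read below 0.35 RPKmM. TGACTCAGC, absent from the longer promoter window, is also absent from the shorter. The ribosomal protein median was 10 RPKmM over genes of at least 10 kb, against 6.12 RPKmM. Why the longer ones read higher was not tested. The share of member promoters with the interferon response element form was 6.82% in the shorter window, against 11.4%. The share over all promoters was 2.06% there, against 3.44%, as fewer bases were searched. Alternatives chosen after seeing the data were the ribosomal pattern with the S6 kinases and Rps19bp1 (median 5.05 RPKmM) or without symbols of pseudogenes, retrocopies and paralogues (6.42 RPKmM), the spread of the standard subunits without their highest and lowest genes (8.44 times, against 11.8), the cap with Adrm1 and Shfm1 (non-ATPase median 3.38 RPKmM, against 5.05 RPKmM), and the least active entry for the share of standard subunits at or above 0.87 RPKmM (100%). No paired analysis was possible because both libraries are pooled in 1 column of 1 group, and for the same reason no library could be left out. Rounding to 2 decimals limits values near 0.01 RPKmM.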

Other observations

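Of 49 genes, 10 (20.4%) had a coding gene on the opposite strand with a start within 1 kb, against 11.7% of 16689 coding genes. The neighbour read less than the proteasome gene for Psma7 (3.95 RPKmM, Ss18l1 0.33 RPKmM), Psmc2 (3.73 RPKmM, Dnajc2 0.97 RPKmM), Psmd13 (3.38 RPKmM, Sirt3 0.64 RPKmM), Psme2 (0.905 RPKmM, Rnf31 0.72 RPKmM) and Psmg2 (0.77 RPKmM, Cep76 0.47 RPKmM). It read more for Psma2 (1.22 RPKmM, Mrpl32 2.28 RPKmM), Psmc5 (5.04 RPKmM, Ftsj3 7.2 RPKmM) and Psmd10 (0.35 RPKmM, Atg4a 0.39 RPKmM). At Psmb9 the neighbour was Tap1, and that of Psma4 has no entry. With starts 75 bp apart, Psmc5 and Ftsj3 were both above 5 RPKmM, whereas Psma7 and Ss18l1, 76 bp apart, were far apart in level.

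The genes were spread over 16 chromosomes, with 9 of them on chromosome 11 and 6 each on chromosomes 2 and 14. On chromosome 3, Psmb4 (1.68 RPKmM) and Psmd4 (12.29 RPKmM) lie 146 kb apart. Of the muscle ubiquitin ligases that feed the proteasome in wasting muscle, Trim63 read 0.03 RPKmM, Fbxo32 1 RPKmM, and Fbxo30 5.22 and 5.3 RPKmM in its entries.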
